A study of Mus musculus with 12 samples.

Results

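The expression of hypothalamic genes was examined as a design of 2 factors, the sweetener aspartame and the receptor antagonist CGP 39551, on all 12 of the 12 arrays of the study. Each array carried hypothalamic RNA of male C57Bl/6J mice aged 21 weeks, with 3 arrays in each of 4 groups. ASP+CGP mice received both agents, CGP mice the antagonist alone, ASP mice aspartame alone, and CON mice neither. Aspartame reached the offspring first through the mother and later through their own drinking water, at an estimated 46 mg/kg, and the antagonist was given to the mothers at 5 mg/kg until postnatal day 28. RNA from the mice of each group was combined before hybridization, so a group is 1 pool measured on 3 arrays. The p-values below reflect variation among arrays, not among mice, and a treatment effect and any other difference between the pools cannot be told apart. The arrays of all 4 groups enter the comparison, and of 29149 probe sets the 19019 with exactly 1 gene symbol were its members. Of these, 18810 reached a log2 signal of 6 on at least 3 arrays and 209 did not. Taking the brightest probe set of each gene left 17186 genes.

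The interaction is the aspartame difference in mice with the antagonist, ASP+CGP minus CGP, less the aspartame difference in mice without it, ASP minus CON. A value of 0 on the log2 scale means that the fold changes of both agents multiply. A negative value means that ASP+CGP lay below that product, or that aspartame raised the gene less in antagonist-treated mice. CGP 39551 is a competitive antagonist of the N-methyl-D-aspartate receptor (NMDAR), a glutamate-gated cation channel that takes part in synapse formation during development. The hypothalamus controls the anterior pituitary, which lies directly below it, through releasing hormones, and through pituitary corticotropin it controls the steroid output of the adrenal cortex. The comparison asked whether blocking the receptor early in life alters what aspartame does to adult gene expression.

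Across probe sets, r was 0.995 to 0.999 between arrays of one pool and 0.988 to 0.998 between arrays of different pools, and the median log2 signals spanned 8.28 to 8.34. The third ASP+CGP array and the third CON array stood apart from their own pool means, the SD of their deviations being 0.101 and 0.0917, while it was 0.0494 to 0.0713 for the 10 others. The hypothalamic label was checked on 13 marker genes such as Avp, Oxt, Hcrt and Pmch, of which 12 were measured. Their summed linear signal was 28024 to 29460 on ASP+CGP arrays, 28761 to 29289 on CGP arrays, 30327 to 30886 on ASP arrays and 32405 to 35856 on CON arrays, and no marker lay under a log2 signal of 6 in all pools. One of these markers, Npy, was called in the interaction. Of the NMDAR subunits, Grin2a to Grin2d, Grin3a and Grin3b were measured. They and the cytoskeletal gene Actb were not called, with subunit interactions between -0.17 and 0.10 and adjusted p-values in limma between 0.397 and 0.889.

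The aspartame difference with the antagonist departed from that without it for a limited set of genes, and for most of them ASP+CGP minus CGP was the lower of both. In limma, 257 of 17186 genes (1.5%) passed a Benjamini-Hochberg adjusted p of 0.05 together with a fold of 1.4 and are here termed called. The interaction was negative for 232 of them (1.35%) and positive for 25 (0.145%), while the median over all genes was -0.01. These 2 shares are the background for the counts of list genes below. Below, called higher and called lower refer to the sign of the interaction unless another comparison is named. The standard error of a called interaction lay between 0.06 and 0.20 on the log2 scale. At the threshold, Acly and C2 (-0.49 each) and Gm10033 (0.49) were just inside it, whereas Chgb and Nrg4 (-0.48 each) and Fnbp1l (0.48) were just outside. Without the third ASP+CGP and the third CON array, 264 genes were called, and 231 of the 257 were among them. The 25 positive calls numbered 51 without the second CON array and 42 without the first ASP+CGP array.

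**Figure D1:**
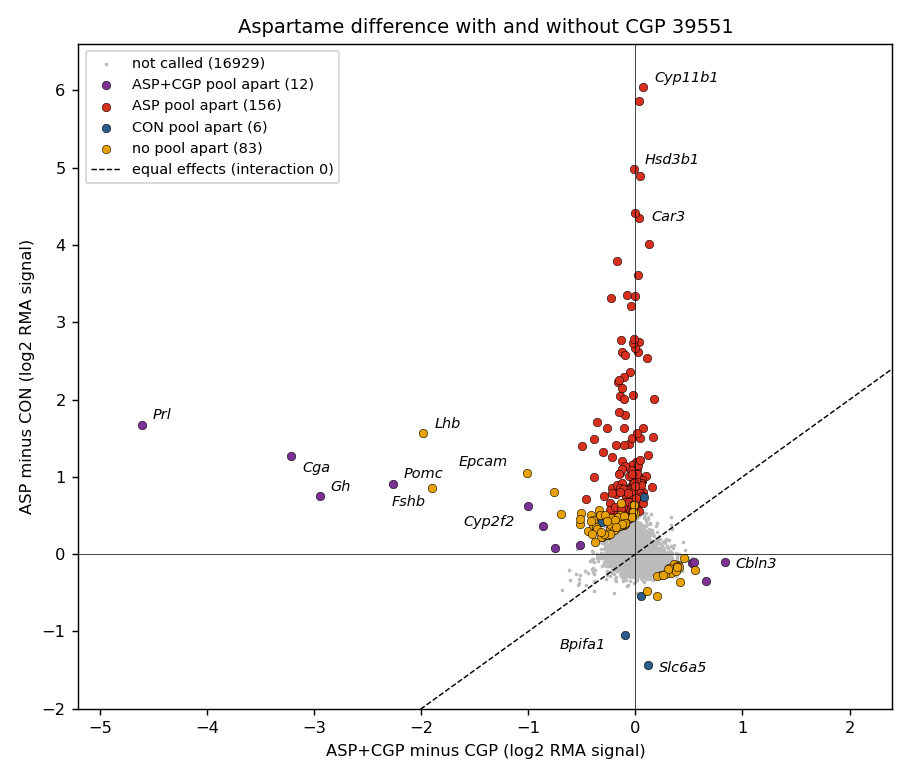
Each point is 1 of 17186 genes, with the difference ASP+CGP minus CGP on the x axis and ASP minus CON on the y axis, both in log2 RMA signal. Colours mark the 257 genes called in the interaction by the pool that stood apart, and the dashed line marks equal differences. The 156 genes with the ASP pool apart run up the vertical axis, while Prl, Cga, Gh, Lhb and Pomc lie in the upper left, higher in ASP than in CON and lower in ASP+CGP than in CGP.

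The comparisons ASP+CGP vs CGP and ASP vs CON, whose difference is the interaction, share no array. Of the 257 genes, 155 were called higher in ASP than in CON with no call between ASP+CGP and CGP. A further 12 changed in opposite directions, lower in ASP+CGP than in CGP and higher in ASP than in CON. They were the hormone and receptor genes Prl, Cga, Gh, Lhb, Pomc, Fshb and Ghrhr, the epithelial genes Epcam, Rab25 and Cyp2f2, the antigen presentation gene H2-Aa, and Tmem184a. Another 5 genes (Oacyl, Tshb, Neurod4, Lcn2 and Dapl1) were called lower in ASP+CGP than in CGP alone, and 5 (Gabra6, Unc13c, Crym, Cbln3 and Zfp931) were called higher there. Only 4 were called lower in ASP than in CON (Lamp5, Csmd3, Bpifa1 and Slc6a5), and for 76 neither comparison was called by itself. Over all genes, 28 (0.163%) were called in ASP+CGP vs CGP, of which 5 (0.0291%) rose and 23 (0.134%) fell. In ASP vs CON 180 (1.05%) were called, of which 175 (1.02%) rose and 5 (0.0291%) fell. Read along the other factor, 219 genes (1.27%) were called in ASP+CGP vs ASP, of which 6 (0.0349%) rose and 213 (1.24%) fell, and 19 (0.111%) in CGP vs CON, of which 16 (0.0931%) rose and 3 (0.0175%) fell.

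The genes were then sorted by the pool that stood apart. A pool stood apart when its 3 arrays all lay above or all below the other 9, its mean was farther from the nearest other mean than the other 3 means were from each other, and it differed from the mean of those 3 by more than 1.4-fold. The sorting uses the same signals as the interaction and is given as a description without a test. By this rule 188 of 17186 genes (1.09%) had a pool apart. The ASP pool was above the others in 166 genes (0.966%) and below them in 0. The ASP+CGP pool was below in 10 (0.0582%) and above in 4 (0.0233%), the CON pool was above in 4 (0.0233%) and below in 3 (0.0175%), and the CGP pool was below in 1 (0.00582%) and above in 0. The single CGP gene was the small nucleolar RNA gene Snord42a, which was not called in the interaction and was chosen here after its values were seen. Among the 257 called genes, the ASP pool was above in 156, the ASP+CGP pool was below in 8 and above in 4, the CON pool was above in 3 and below in 3, and in 83 no pool stood apart.

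**Figure D2:**
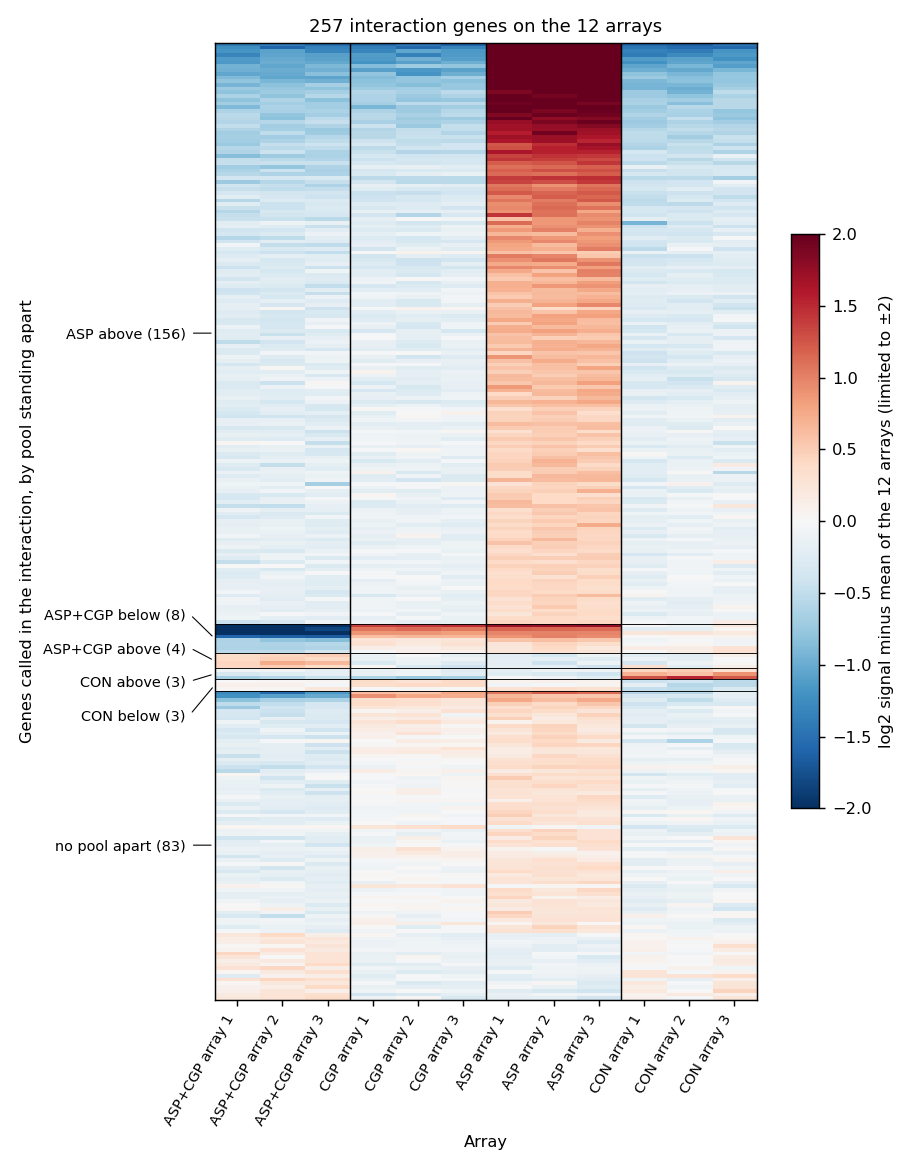
Rows are the 257 genes called in the interaction, grouped by the pool that stood apart, and columns are the 12 arrays in the order ASP+CGP, CGP, ASP and CON. Colour is the log2 signal minus the mean of the 12 arrays, limited to 2 in either direction. The 156 genes at the top are high on all 3 ASP arrays, and the 8 below them are low on all 3 ASP+CGP arrays.

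Among the called genes with the ASP+CGP pool below the others, those with the largest interactions encode hormones of the anterior pituitary. They form 2 sets here. In the first, Prl, Cga, Gh and Pomc, the ASP+CGP pool stood apart below the others. In the second, Lhb, Fshb, Ghrhr, Tshb and Gnrhr, the pools followed the same order of low and high but no pool met the rule. All 9 had their lowest mean in ASP+CGP and their second lowest in CON. As background, lactotropes make prolactin (Prl), somatotropes make growth hormone (Gh), gonadotropes make luteinizing and follicle-stimulating hormone from the common alpha subunit (Cga) and the subunits Lhb and Fshb, thyrotropes join the same alpha subunit to Tshb, and corticotropes cleave corticotropin from the product of Pomc. Transcription of these genes in their cell types depends on lineage factors such as POU1F1 for Prl, Gh and Tshb and NR5A1 for the gonadotropin subunits.

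The 250 bases before the start of 4 of these genes are shown because they moved together and encode products of lactotropes (Prl), gonadotropes (Cga and Lhb) and corticotropes (Pomc). They were taken from RefSeq on build GRCm38.p6, at chr13:27057320-27057569 on the + strand for Prl, chr4:34893529-34893778 (+) for Cga, chr7:45420696-45420945 (+) for Lhb and chr12:3954695-3954944 (+) for Pomc. Capitals mark matches on either strand to AAGGTCA, a site bound by NR5A1 and other nuclear receptors, TATNCAT, the core of the POU1F1 site, and TATAAA, the TATA box.
Prl: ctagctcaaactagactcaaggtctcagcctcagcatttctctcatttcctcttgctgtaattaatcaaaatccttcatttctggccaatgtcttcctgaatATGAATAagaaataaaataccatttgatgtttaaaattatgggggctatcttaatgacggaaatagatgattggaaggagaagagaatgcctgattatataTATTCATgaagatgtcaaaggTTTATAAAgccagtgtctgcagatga
Cga: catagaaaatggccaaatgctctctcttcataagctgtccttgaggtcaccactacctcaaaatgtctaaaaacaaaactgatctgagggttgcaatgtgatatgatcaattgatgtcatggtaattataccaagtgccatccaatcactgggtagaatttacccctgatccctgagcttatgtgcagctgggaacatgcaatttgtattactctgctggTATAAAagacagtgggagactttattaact
Lhb: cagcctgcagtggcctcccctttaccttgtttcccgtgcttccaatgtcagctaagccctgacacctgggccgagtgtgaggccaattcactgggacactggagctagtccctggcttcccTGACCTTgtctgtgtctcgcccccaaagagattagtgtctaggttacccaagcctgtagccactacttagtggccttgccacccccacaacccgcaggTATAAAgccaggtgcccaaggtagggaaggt
Pomc: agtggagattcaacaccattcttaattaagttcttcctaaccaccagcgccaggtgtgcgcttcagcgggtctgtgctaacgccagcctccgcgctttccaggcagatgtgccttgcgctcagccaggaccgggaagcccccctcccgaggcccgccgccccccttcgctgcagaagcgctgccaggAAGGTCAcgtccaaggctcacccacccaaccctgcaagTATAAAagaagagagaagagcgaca
Counting back from -1 at the last base before the start, the Prl window held TATNCAT at -148 and -47 and TATAAA at -24, which overlaps a match on the other strand at -26. The Cga window held TATAAA at -30. The Lhb window held AAGGTCA at -129 and TATAAA at -31, and the Pomc window held AAGGTCA at -63 and TATAAA at -25. Of the 9 called genes of the hormone list, 7 had a window in the table, and TATAAA was in 7 of 7, AAGGTCA in 2 and TATNCAT in 1. In Gnrhr the only TATAAA match lay at -121, whereas the other windows each had one between -31 and -24. Over all 32851 windows of this length, 12.4% held TATAAA, 4.08% AAGGTCA and 7.92% TATNCAT, and over 116 windows of genes with the ASP pool above the shares were 12.9%, 4.31% and 6.03%. TATAAA was searched after the sequences had been read, and a match describes letters only.

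Prolactin had the largest interaction of all genes. Its log2 signals were 7.54, 7.24 and 8.04 on the ASP+CGP arrays and 12.17, 12.21 and 12.26 on the CGP arrays, and 12.51, 12.49 and 12.53 on the ASP arrays against 10.80, 10.67 and 11.03 on the CON arrays. The 4 pools did not overlap, each agent alone was above CON, and their combination was below it. If the fold changes of both agents had multiplied, ASP+CGP would have reached 13.89, whereas its mean was 7.61 ± 0.40 (SD over the 3 arrays). The interaction was -6.28 ± 0.20 (SE), a 77.8-fold departure (adjusted p = 7.9e-11 in limma).

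Cga gave 9.39, 9.29 and 9.79 in ASP+CGP, 12.68, 12.75 and 12.67 in CGP, 12.80, 12.76 and 12.75 in ASP and 11.41, 11.43 and 11.67 in CON. For Gh the values were 11.04, 10.97 and 11.05 in ASP+CGP, 13.98, 13.98 and 13.93 in CGP, 14.08, 14.09 and 14.07 in ASP and 13.34, 13.36 and 13.30 in CON. Both genes repeated the order of prolactin, with ASP+CGP lowest and CON between it and the single agents. Their interactions were -4.48 ± 0.14 and -3.69 ± 0.06 (SE), with adjusted p-values of 7.6e-11 and 2.4e-14 in limma. Pomc, which is also made by neurons of the arcuate nucleus, had 9.25, 9.20 and 9.18 in ASP+CGP, 11.44, 11.48 and 11.50 in CGP, 11.74, 11.85 and 11.78 in ASP and 10.84, 10.88 and 10.91 in CON. Its interaction was -3.17 ± 0.06.

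The gonadotropin subunits also had CON between ASP+CGP and the single agents. Lhb measured 8.49, 8.25 and 8.64 in ASP+CGP, 10.40, 10.36 and 10.55 in CGP, 10.83, 10.98 and 10.90 in ASP and 9.20, 9.23 and 9.58 in CON. Fshb measured 7.25, 7.38 and 7.45 in ASP+CGP, 9.37, 9.23 and 9.18 in CGP, 9.13, 9.0 and 8.99 in ASP and 8.12, 8.14 and 8.27 in CON. ASP+CGP was still below all other arrays for both, and the interactions were -3.54 ± 0.15 and -2.76 ± 0.09. Fshb was the exception among the 9 called hormone-list genes in having its highest mean in CGP and not in ASP.

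The receptor genes Ghrhr and Gnrhr were shifted in the same order with smaller values. Ghrhr, the somatotrope receptor for growth hormone-releasing hormone, had 8.43, 8.43 and 8.60 in ASP+CGP, 9.29, 9.26 and 9.17 in CGP, 9.40, 9.31 and 9.48 in ASP and 8.52, 8.63 and 8.62 in CON. ASP+CGP and CON overlapped, and the interaction was -1.56 ± 0.08. Gnrhr, the gonadotrope receptor for gonadotropin-releasing hormone, and the thyrotropin subunit gene Tshb had interactions of -0.78 and -0.98. Both were named after their values were seen, and Gnrhr lay near a log2 signal of 6 in all pools, with means of 5.86 in ASP+CGP, 6.25 in CGP, 6.27 in ASP and 5.89 in CON.

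**Figure D3:**
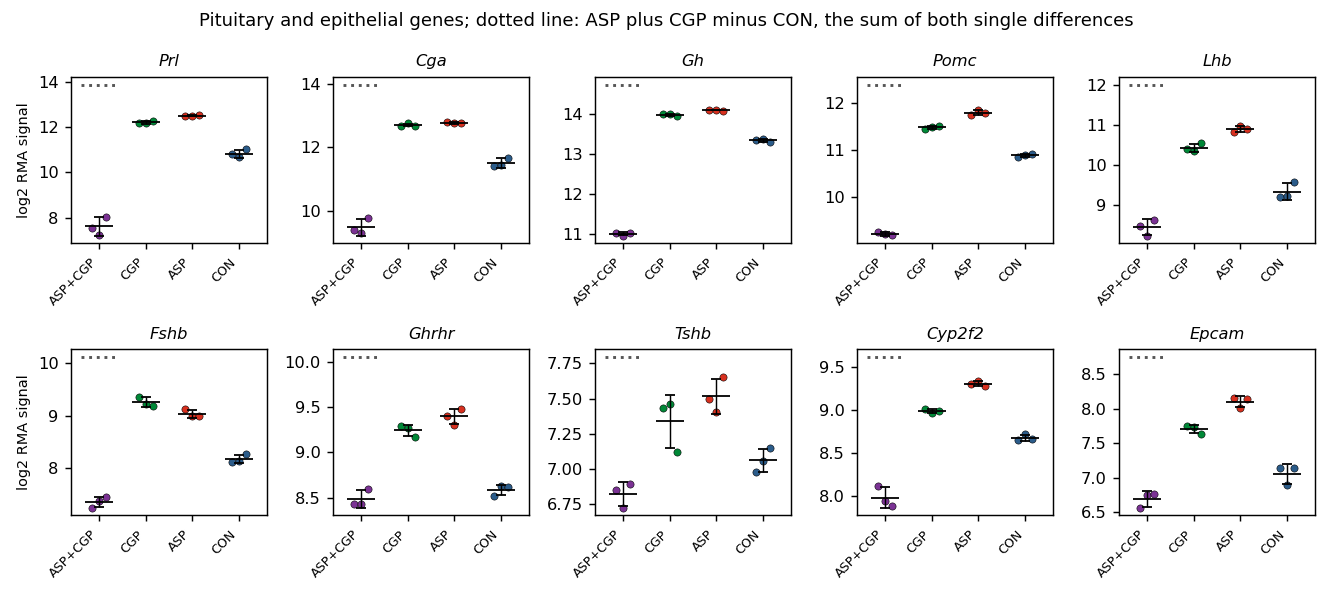
Log2 RMA signals of 8 pituitary and 2 epithelial genes on each array, with pools in the order ASP+CGP, CGP, ASP and CON. Bars are means with SD over 3 arrays, and the dotted line is the ASP+CGP level at which both fold changes would multiply. ASP+CGP means lie below that line in every panel, by 6.28 for Prl.

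Of 13 measured genes of the pituitary hormone and receptor list, 9 had a negative interaction past the threshold, against 1.35% of all genes, and the median of the 13 was -1.56. In the separate comparisons, 8 of the 13 fell in ASP+CGP vs CGP, 7 rose in ASP vs CON and 7 rose in CGP vs CON, where 0.0931% of all genes rose. ASP vs CON and CGP vs CON share the CON arrays. ASP+CGP vs CGP and CGP vs CON share the CGP arrays with opposite sign, so these counts are not independent. The other 4 members, Crhr1, Pcsk1, Drd2 and Trhr, had interactions from 0.02 to 0.32 and were not called. The dopamine receptor Drd2 and the convertase Pcsk1 are also expressed in brain. Of 11 lineage factor genes 2 were called lower, Nr5a1 (-0.72 ± 0.07) and the corticotrope factor Tbx19 (-0.67 ± 0.11), with a list median of -0.10. Nr5a1 was high in the ASP pool alone, with means of 8.32 in ASP+CGP, 8.43 in CGP, 9.03 in ASP and 8.42 in CON. Unlike the hormone genes it did not rise in CGP, and it is also a member of the adrenal cortex list and of the list of hypothalamic region factors. All 7 genes that the study had singled out for opposite changes (Prl, Cga, Gh, Lhb, Pomc, Fshb and Cyp2f2, the last listed there under the symbol Cyp2f1) were called lower, which is not independent evidence because they were picked on these samples. Summed over 7 measured pituitary markers, the linear signal was 3951 to 4537 on ASP+CGP arrays, 32205 to 32775 on CGP arrays, 36188 to 36502 on ASP arrays and 17682 to 18583 on CON arrays, and 7 of 7 were called. The 7 markers are all among the 9 called list genes, so their sum restates those genes and is not separate evidence. The pituitary is not part of the labelled tissue, and the part of pituitary RNA in these values was not tested. In these bulk samples fewer cells of a type and less RNA per cell cannot be told apart.

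Of the remaining 4 called genes with ASP+CGP below the other pools, 3 belong to the list for airway and oral secretory epithelium (Cyp2f2, Lcn2 and Dapl1). Cyp2f2, a cytochrome P450 of airway epithelium, gave 8.12, 7.95 and 7.89 in ASP+CGP, 9.01, 8.97 and 8.98 in CGP, 9.30, 9.34 and 9.27 in ASP and 8.65, 8.72 and 8.67 in CON. All 4 pools were separate and the interaction was -1.63 ± 0.08. Oacyl gave 7.29, 7.29 and 7.33 in ASP+CGP and 8.21, 8.09 and 8.20 in CGP, and 8.15, 8.32 and 8.24 in ASP against 7.87, 7.93 and 7.84 in CON, an interaction of -1.22 ± 0.07. A further 2 genes, named after their values were seen, completed the 8 called genes of this group. They were Lcn2, the iron-sequestering lipocalin 2 (-0.84), and Dapl1 (-0.64), both with means in CGP, ASP and CON that lay within 0.22 of each other. Epcam, the epithelial cell adhesion molecule, met no pool rule but showed the hormone-like order. It had 6.56, 6.75 and 6.76 in ASP+CGP, 7.75, 7.73 and 7.63 in CGP, 8.15, 8.01 and 8.15 in ASP and 7.14, 6.89 and 7.13 in CON, with an interaction of -2.06 ± 0.11. Rab25, a small GTPase of epithelial membrane recycling, and Tmem184a followed at -1.04 ± 0.10 and -1.21 ± 0.14. Of 15 measured genes of the airway and oral epithelium list 5 were called lower and 1 higher, beside 1.35% and 0.145% of all genes, with a median of -0.14. Among the 5 was Dmbt1, named after its values were seen, for which the ASP pool stood above the others. The 1 called higher was Bpifa1, for which the CON pool stood above. The joint lubricant gene Prg4 and the matrix gene Fmod also had ASP+CGP below the others, but their interactions of -0.07 and -0.25 were not called. The sum of 4 meningeal markers was 1306 to 1347 in ASP+CGP, 1757 to 1867 in CGP, 1639 to 1709 in ASP and 1857 to 1951 in CON, and the part of meningeal tissue in these values was not tested.

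In the other direction, 4 called genes had the ASP+CGP pool above the rest, among them 2 genes of cerebellar granule cells. Cbln3, a secreted synaptic organizer, had 7.60, 7.90 and 7.80 in ASP+CGP, 6.85, 7.05 and 6.90 in CGP, 6.96, 6.74 and 7.06 in ASP and 6.83, 7.06 and 7.18 in CON. Gabra6, the alpha 6 subunit of the GABA-A receptor, had 6.43, 6.50 and 6.55 in ASP+CGP, 5.92, 6.07 and 5.89 in CGP, 5.83, 5.71 and 5.96 in ASP and 5.85, 5.84 and 6.16 in CON. CGP, ASP and CON overlapped for both genes, and the interactions were 0.94 ± 0.14 (adjusted p = 0.0014 in limma) and 0.64 ± 0.12 (adjusted p = 0.0069). Neither was called with a replicate block for ASP+CGP and CON alone, where the values were 0.57 and 0.48 (adjusted p = 0.11 and 0.15 in limma). Unc13c, a priming factor of synaptic vesicles, gave an interaction of 0.65 ± 0.07. It was 0.46 and no longer past the fold threshold when its probe sets were averaged. The zinc finger gene Zfp931 gave 1.0 ± 0.18 but lay near background, and the value was 0.07 once signals under 6 were set to 6. Of 17 granule cell list genes, 2 were called higher, beside 0.145% of all genes, and the median was 0.11. Gabra6 would not have passed the signal filter without the ASP+CGP arrays, so this count depends in part on that filter. The sum of Cbln3, Gabra6 and Neurod1 was 493 to 571 in ASP+CGP, 358 to 381 in CGP, 340 to 358 in ASP and 334 to 354 in CON, and the part of cerebellar tissue in this result was not tested. Cbln3 and Gabra6 are the 2 called list genes, so the sum is not separate evidence.

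The ASP pool alone carried the largest group, 156 called genes, and genes of adrenal cortex, exocrine pancreas and fat were among those with the largest interactions. Their interactions ranged from -5.97 to -0.51 with a median of -0.96, and 72 exceeded 2-fold, 31 exceeded 4-fold and 6 exceeded 16-fold. The median over the 156 gene means was 7.27 in ASP+CGP, 7.40 in CGP, 8.77 in ASP and 7.36 in CON. ASP+CGP minus CGP had a median of -0.06 over these genes and stayed between -0.50 and 0.18, beside a median of -0.02 over all genes. The CON mean was under a log2 signal of 7 in 57 of the 156 and under 6 in 16, where background forms a large share of the signal and folds are understated. Of the 156, 54 belonged to the lists for adrenal cortex, adrenal medulla, pancreas, white and brown fat, antigen presentation and liver, and 91 belonged to no list. Those lists held 14, 14, 21, 20, 8, 11 and 11 of the 17186 tested genes, in the same order. They were chosen with earlier results of these data known, so the 54 are a description only.

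The steroid synthesis genes of the adrenal cortex led the group. Cyp11b1, the 11 beta-hydroxylase that completes corticosterone, gave 6.51, 6.53 and 6.38 in ASP+CGP, 6.39, 6.49 and 6.32 in CGP, 12.44, 12.39 and 12.39 in ASP and 6.33, 6.29 and 6.46 in CON. The ASP arrays stood far above the other 9, which overlapped, and the interaction was -5.97 ± 0.08 (adjusted p = 1.8e-14 in limma). Cyp21a1, the 21-hydroxylase one step before, gave 6.69, 6.31 and 6.55 in ASP+CGP, 6.52, 6.34 and 6.59 in CGP, 12.22, 12.31 and 12.22 in ASP and 6.46, 6.36 and 6.34 in CON. Hsd3b1, a 3 beta-hydroxysteroid dehydrogenase, gave 5.14, 5.26 and 5.02 in ASP+CGP, 5.01, 5.28 and 5.18 in CGP, 10.12, 9.97 and 9.87 in ASP and 4.97, 4.93 and 5.14 in CON. Only the ASP arrays rose clearly above background for Hsd3b1, and the interactions were -5.83 ± 0.12 and -4.99 ± 0.12.

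Upstream in the pathway, Cyp11a1, which cleaves the cholesterol side chain, had an interaction of -4.85 ± 0.11, and Star, which moves cholesterol into mitochondria, one of -4.42 ± 0.08. Star measured 6.73, 6.86 and 6.80 in ASP+CGP, 6.73, 6.91 and 6.76 in CGP, 11.10, 11.15 and 11.16 in ASP and 6.74, 6.79 and 6.65 in CON. In total 12 of 14 measured adrenal cortex genes (19 listed) were called lower, against 1.35% of all genes, with a median of -2.34. The ASP pool was above the others in those 12. The 2 others, Nr0b1 and Cyb5a, had interactions of -0.07 and 0.12. Hsd3b1, Mc2r and Hsd3b6 would not have passed the signal filter without the ASP arrays. The count and the median therefore depend in part on that filter. The 6 adrenal cortex markers summed to 442 to 448 on ASP+CGP arrays, 432 to 439 on CGP arrays, 16193 to 16432 on ASP arrays and 412 to 426 on CON arrays, 6 of 6 were called, and 2 of them lay under a log2 signal of 6 in CON. All 6 are among the 12 called list genes, so the sum is not separate evidence. Cyp11b1 and Cyp21a1 act mainly in the adrenal cortex, which is not part of the labelled tissue. Adrenal glands of these mice were also extracted, with the same kind of kit, according to the methods, and the part of adrenal RNA in these values was not tested. The list for brain neurosteroid synthesis leaves out genes that the adrenal list holds, such as Star, Cyp11a1 and Hsd3b1. Of its 11 genes 6 were measured. Only Tspo, the outer mitochondrial translocator protein, was called (-0.94 ± 0.11), and the median of the 6 was 0.02. Because of that omission these 6 genes do not describe neurosteroid synthesis as a whole.

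Catecholamine genes changed in part. Pnmt, which makes adrenaline, had 6.54, 6.64 and 6.68 in ASP+CGP, 6.76, 6.70 and 6.82 in CGP, 9.21, 9.45 and 9.51 in ASP and 6.62, 6.39 and 6.84 in CON. Dbh, which makes noradrenaline, had 5.99, 6.19 and 5.97 in ASP+CGP, 6.18, 6.02 and 6.03 in CGP, 8.89, 9.0 and 8.77 in ASP and 6.14, 6.09 and 6.23 in CON. For both the ASP arrays were separate and the other 9 were mixed, with interactions of -2.91 ± 0.14 and -2.75 ± 0.10. The vesicular transporter Slc18a1 followed at -0.84 ± 0.09. Of 14 measured genes of the adrenal medulla list, 6 were called lower, against 1.35% of all genes, and the median was -0.43. The 4 medulla markers, all among the 6 called list genes, summed to 1499 to 1760 in ASP+CGP, 1606 to 1612 in CGP, 3279 to 3463 in ASP and 1519 to 1680 in CON, and Th, one of the 4, is also made by hypothalamic dopamine neurons. Npy, an appetite-stimulating peptide of arcuate neurons and of chromaffin cells, was in this group with 10.94, 10.94 and 11.26 in ASP+CGP, 11.15, 11.19 and 11.16 in CGP, 12.04, 12.01 and 11.98 in ASP and 11.36, 11.39 and 11.65 in CON. Its interaction was -0.67 ± 0.12.

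Digestive enzyme genes of the pancreas behaved likewise. Ctrb1, which encodes chymotrypsinogen B, gave 7.56, 7.52 and 7.48 in ASP+CGP, 7.57, 7.59 and 7.53 in CGP, 10.69, 10.69 and 10.51 in ASP and 7.35, 7.29 and 7.61 in CON. The carboxypeptidase genes Cpa1 and Cpb1 had interactions of -2.74 ± 0.09 and -2.43 ± 0.08, beside -3.26 ± 0.10 for Ctrb1. Of 27 listed genes 21 were measured, and 16 of them were called lower, against 1.35% of all genes, with a median of -1.04. The ASP pool stood above the others in those 16. Cpb1, Zg16 and Pnliprp1 would not have passed the signal filter without the ASP arrays. The sum of 4 pancreatic markers, all among the 16 called genes, was 452 to 461 in ASP+CGP, 462 to 470 in CGP, 2710 to 2886 in ASP and 419 to 469 in CON. The acinar transcription factor gene Ptf1a, named after its value was seen, was not called and had an interaction of 0.03. The highest interaction of any gene in the list was 0.03.

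Genes of fat cells formed the third large set. Car3, a carbonic anhydrase abundant in adipocytes, had 6.90, 7.05 and 7.02 in ASP+CGP, 6.85, 6.95 and 7.07 in CGP, 11.32, 11.35 and 11.20 in ASP and 6.83, 6.99 and 6.98 in CON. Fabp4, the adipocyte fatty acid binding protein, had 5.57, 5.54 and 5.57 in ASP+CGP, 5.45, 5.38 and 5.46 in CGP, 9.69, 9.72 and 9.31 in ASP and 5.56, 5.51 and 5.61 in CON. Outside the ASP pool Fabp4 was below a log2 signal of 6, and the interactions were -4.32 ± 0.09 and -3.89 ± 0.12. The adipokine gene Retn gave -2.79 ± 0.10, and the brown fat genes Ucp1, the uncoupling protein, and Cox8b gave -2.67 ± 0.09 and -1.99 ± 0.07. Of 20 measured genes of white or general adipose tissue (22 listed) 12 were called lower (median -0.88), against 1.35% of all genes. Of 8 brown adipose genes (9 listed) 3 were (median -0.27). Fabp4, Cd36, Adipoq and Elovl3 would not have passed the signal filter without the ASP arrays. The sum of 4 adipocyte markers, all among the 12 called genes, was 419 to 449 in ASP+CGP, 412 to 445 in CGP, 2334 to 2497 in ASP and 395 to 426 in CON. The part of pancreatic and fat tissue in these values was not tested.

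Smaller sets with the ASP pool above came from other lists. The class II antigen presentation genes H2-Aa, Cd74 and H2-Ab1 had interactions of -1.90 ± 0.08, -1.87 ± 0.07 and -1.63 ± 0.09, and 4 of 11 measured genes of that list were called lower. The share called lower over all genes was 1.35%, for this list and for those that follow. H2-Aa differed from the other ASP genes in having a called fall in ASP+CGP vs CGP as well. It measured 7.58, 7.50 and 7.66 in ASP+CGP and 8.07, 8.13 and 8.04 in CGP, against 9.36, 9.39 and 9.46 in ASP and 8.12, 7.97 and 7.93 in CON. Of 20 oxidative stress and alcohol metabolism genes 4 were called lower, led by Cyp2e1 (-3.97 ± 0.09) and the alcohol dehydrogenase Adh1 (-3.54 ± 0.08), which are known from liver and other peripheral tissues, and the median of that list was -0.07. Of 11 liver genes 3 were called lower, among them Alb, the albumin gene (-0.96 ± 0.12), and Hp, haptoglobin (-0.90 ± 0.10), with a list median of -0.08. The third was Ttr (-0.66 ± 0.09), for which CON and not ASP stood apart. The glucocorticoid-induced kinase gene Pdk4 was the only called member among 13 glucocorticoid response genes (-0.84 ± 0.08, list median -0.07). Tbx3, a transcription factor of arcuate neurons, had an interaction of -1.07 ± 0.09, and Hoxc6, a positional factor of trunk tissues, one of -0.72 ± 0.18 (adjusted p = 0.036 in limma), a call that was lost when any of 8 of the 12 arrays was left out. Among the 91 genes of no list, and chosen after their values were seen, the largest was Mgarp, a mitochondrial protein of steroid-producing cells (-3.43). Agtr1a, the angiotensin II receptor (-2.39), and Pck1, the phosphoenolpyruvate carboxykinase (-1.56), were in the same group. Mgarp would not have passed the signal filter without the ASP arrays.

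**Figure D4:**
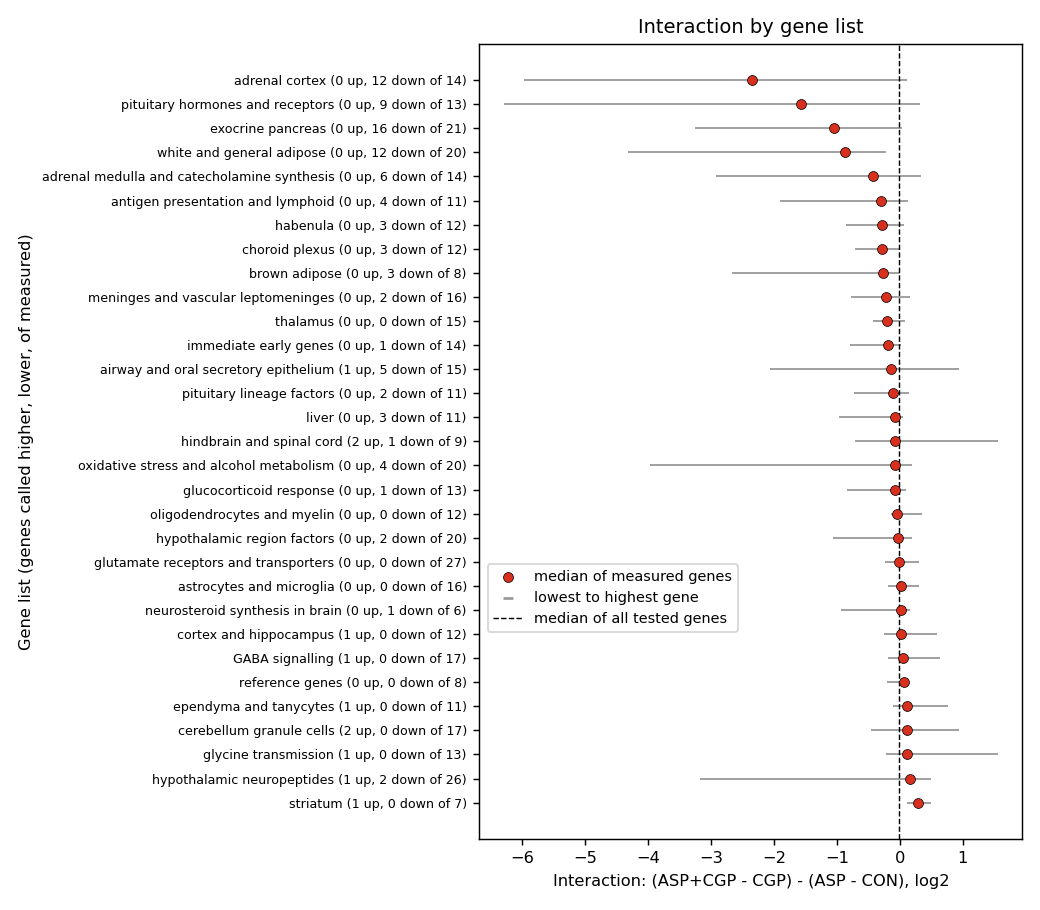
For each gene list the point is the median interaction in log2 units over the measured genes and the line runs from the lowest to the highest gene, with the counts called higher and lower beside the name. The dashed line is the median of all tested genes. Adrenal cortex, pituitary hormones, exocrine pancreas and white adipose tissue have medians of -2.34, -1.56, -1.04 and -0.88, while the oligodendrocyte and the astrocyte and microglia lists have medians of -0.05 and 0.01.

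In 6 called genes the CON pool stood apart from all 3 treated pools, above them in 3 and below them in 3. Slc6a5, the neuronal glycine transporter GlyT2, had 7.43, 7.51 and 7.65 in ASP+CGP, 7.46, 7.33 and 7.43 in CGP, 8.11, 8.03 and 7.88 in ASP and 9.37, 9.61 and 9.33 in CON. All 9 treated arrays lay below the CON arrays, ASP was above ASP+CGP and CGP, and the interaction was 1.55 ± 0.11 (adjusted p = 9e-07 in limma). The difference CGP minus CON was -2.03, that of ASP minus CON was -1.43, and that of ASP+CGP minus CGP was 0.12. Slc6a5 was the only called gene among 13 of glycine transmission, whose median was 0.11. Bpifa1, a secreted protein of the upper airway, gave 6.82, 6.90 and 6.96 in ASP+CGP, 6.99, 7.06 and 6.92 in CGP, 6.91, 6.84 and 6.74 in ASP and 7.84, 7.73 and 8.05 in CON. Lamp5, a membrane protein of cortical and forebrain neurons, gave 9.20, 9.22 and 9.09 in ASP+CGP, 9.14, 9.19 and 9.03 in CGP, 9.11, 9.18 and 9.18 in ASP and 9.71, 9.79 and 9.60 in CON. The 3 treated pools overlapped for Lamp5. For Bpifa1 the ASP+CGP arrays overlapped both other treated pools, while the CGP arrays lay above the ASP arrays, and the interactions were 0.94 ± 0.10 and 0.59 ± 0.08.

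In the opposite direction CON was lowest for Chrnb4, Gpr151 and Ttr. Chrnb4, the beta 4 nicotinic receptor subunit of the medial habenula, had 8.79, 8.81 and 8.81 in ASP+CGP, 9.16, 9.07 and 9.17 in CGP, 8.86, 8.88 and 8.87 in ASP and 8.36, 8.41 and 8.26 in CON. Gpr151, an orphan receptor of habenular neurons, had 8.06, 8.06 and 7.93 in ASP+CGP, 8.31, 8.35 and 8.34 in CGP, 7.90, 7.91 and 8.0 in ASP and 7.75, 7.38 and 7.43 in CON. CGP was highest for both, and the interactions were -0.86 ± 0.06 and -0.74 ± 0.11. That of Gpr151 was -0.46 and not called (adjusted p = 0.09 in limma) with a replicate block for ASP+CGP and CON alone. Ttr, the thyroxine carrier transthyretin of choroid plexus and liver, had 12.19, 12.19 and 12.41 in ASP+CGP, 12.18, 12.20 and 12.18 in CGP, 12.48, 12.54 and 12.48 in ASP and 11.71, 11.68 and 11.90 in CON, an interaction of -0.66 ± 0.09. Of 12 habenula genes 3 were called lower with a median of -0.29, and of 12 choroid plexus genes 3 with the same sign of median (-0.28), beside 1.35% of all genes. Not all of these had CON apart. For the choroid plexus genes Steap1 and Aqp1, the ASP pool stood above in the first and no pool stood apart in the second. The habenula gene Lrrc55 (-0.52) had no pool apart, and it was -0.41 and not called without the third ASP+CGP and the third CON array. The 3 habenula markers summed to 835 to 847 in ASP+CGP, 999 to 1039 in CGP, 806 to 838 in ASP and 588 to 643 in CON. The 4 choroid plexus markers summed to 5262 to 6005 in ASP+CGP, 5249 to 5308 in CGP, 6356 to 6575 in ASP and 3886 to 4398 in CON, and the part of either neighbouring tissue in these genes was not tested. The habenula sum includes Chrnb4 and Gpr151 and the choroid plexus sum includes Ttr, so neither is separate evidence. Of 5 measured genes that the study had described as changing alike in ASP and ASP+CGP, 3 were called higher and 1 lower in the interaction, and they were picked on these samples. The fifth, the vasopressin gene Avp, had 10.70, 10.71 and 10.72 in ASP+CGP, 10.91, 10.92 and 10.89 in CGP, 10.67, 10.80 and 10.81 in ASP and 11.26, 11.25 and 11.26 in CON. Its interaction of 0.30 ± 0.06 was within the fold threshold (adjusted p = 0.014 in limma).

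**Figure D5:**
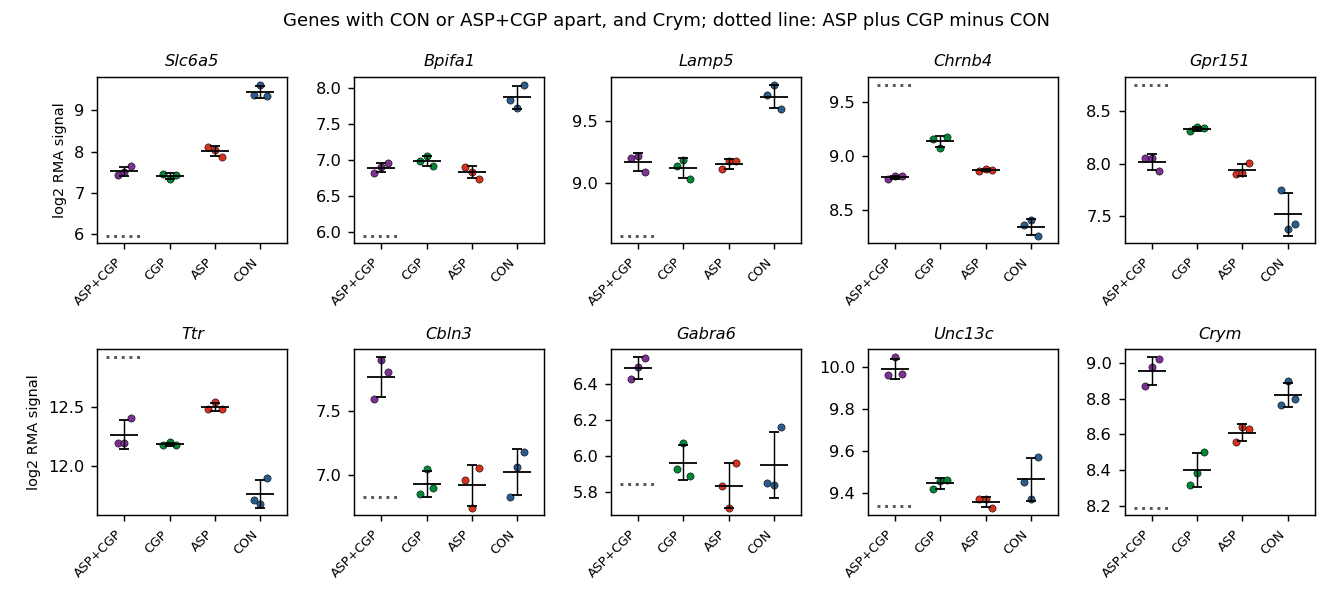
Log2 RMA signals on each array for 6 genes with the CON pool apart, 3 with the ASP+CGP pool above, and Crym, with pools in the order ASP+CGP, CGP, ASP and CON. Bars are means with SD over 3 arrays, and the dotted line is the ASP+CGP level at which both fold changes would multiply. ASP+CGP lies above the line for Slc6a5 by 1.55 and below it for Chrnb4 by 0.86.

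For 83 called genes no pool stood apart, and their interactions were small apart from the hormone and epithelial genes above, with a median size of 0.56. Of the 65 with a negative interaction, ASP had the highest mean in 58, with all 3 ASP arrays above the other 9 in 49, and ASP+CGP had the lowest mean in 49. Neither ASP+CGP vs CGP nor ASP vs CON was called in 62 of the 83. The immediate early gene Nr4a1 was an example with 10.19, 10.15 and 9.93 in ASP+CGP, 10.37, 10.38 and 10.38 in CGP, 10.58, 10.77 and 10.77 in ASP and 10.24, 10.31 and 10.04 in CON. Its interaction was -0.79 ± 0.11, and it was the only called gene among 14 immediate early genes (median -0.19).

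Of the 18 with a positive interaction, ASP+CGP had the highest mean in 15 and CON in 3, while ASP had the lowest in 12 and CGP in 6. Crym, a thyroid hormone-binding crystallin of tanycytes and forebrain neurons, showed a crossed order with 8.87, 8.97 and 9.02 in ASP+CGP, 8.32, 8.39 and 8.50 in CGP, 8.55, 8.64 and 8.63 in ASP and 8.76, 8.90 and 8.80 in CON. The single agents were below both ASP+CGP and CON, the mirror image of the hormone genes, and the interaction was 0.76 ± 0.08. Zfp935, a zinc finger gene, gave 0.77 ± 0.12 and the transmembrane protein gene Csmd3 0.74 ± 0.12, although the value for Csmd3 was 0.39 when its probe sets were averaged. With a replicate block for ASP+CGP and CON alone neither was called (adjusted p = 0.062 for Zfp935 and 0.081 for Csmd3 in limma). Of 26 measured neuropeptide genes, 2 (Pomc and Npy) were called lower and 1 higher, and the median was 0.17. The higher one was the tachykinin gene Tac1 (0.49 ± 0.11), which was 0.33 without the third ASP+CGP and the third CON array and lost its call with that block (adjusted p = 0.057 in limma). No gene was called among 27 glutamate receptor and transporter genes (median -0.01), 12 oligodendrocyte genes (-0.05), 16 astrocyte and microglia genes (0.01), 15 thalamic genes (-0.21) or 8 reference genes (0.07), beside 1.5% of all genes. In lists this short, 0 calls lie near that share and are not a result about the lists. An unadjusted p in limma was under 0.05 in 6, 2, 2, 12 and 1 of these genes in the same order, beside 3083 of all 17186 genes. Of 17 genes of GABA signalling only Gabra6 was called.

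The sign of the interaction was the same on the linear signal scale for 257 of the 257 genes. Of the 257, 11 had further probe sets in the annotation, all of which had the same sign, and in 7 of the 11 all were past the fold threshold.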

How the data were processed

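Hypothalamic RNA pools of 4 groups were measured on 12 Affymetrix Mouse Gene ST arrays. The deposited values are log2 signals, which the authors made with Partek by RMA (background correction, quantile normalization and median polish), 1 per probe set and array. Quantile normalization removes shifts shared by most genes, and background compresses the fold changes of dim genes. Groups and array numbers were taken from the labels, and array columns of the deposited table that could not be assigned to a sample numbered 0.

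Gene symbols came from the platform annotation (19019 with 1 symbol, 1197 with several, 8933 with none), and 18947 identifiers were found in RefSeq. Several-symbol and unnamed probe sets were tested separately and given as counts. A mean per group was fitted with limma 3.58.1 (lmFit, eBayes) in R 4.3.3, with 8 residual degrees of freedom, and p-values were adjusted by Benjamini-Hochberg over 17186 genes. The ± values are standard errors for interactions and SDs over arrays for signals. Depth has no counterpart on arrays, and precision is limited by the few arrays and pools. Permuting 3 against 3 arrays cannot reach a p of 0.05 for a gene and was not done.

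Named genes were the 6 called genes with the largest interaction for each pool apart and direction (also for no pool apart), up to 3 called genes per list, the genes of the study's 2 lists, the NMDAR subunits and Actb. Other genes, given where a small count is resolved into names, were chosen after their values were seen. The members, lists and rules were chosen with earlier results of these data known. The fit was tested on simulated data. Alternatives covered filters, probe set rules, normalization, moderation, array weights, call rules, the conditions for a pool apart, a replicate block (for all pools, and for ASP+CGP and CON alone) and leaving out arrays.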

Additional observations from a re-analysis of the deposited data

Results flagged for a closer look

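For 68 named genes the aspartame difference with the antagonist departed from that without it by the interaction test in limma, on 3 arrays of 1 pool in each group. The values are (ASP+CGP minus CGP) minus (ASP minus CON) in log2 units. Among steroid, catecholamine and pituitary factor genes they were Cyp11b1 (-5.97), Cyp21a1 (-5.83), Hsd3b1 (-4.99), Cyp11a1 (-4.85), Star (-4.42), Pnmt (-2.91), Dbh (-2.75), Slc18a1 (-0.84), Nr5a1 (-0.72), Tbx19 (-0.67) and Tspo (-0.94). Pituitary hormone and receptor genes gave Prl (-6.28), Cga (-4.48), Gh (-3.69), Lhb (-3.54), Pomc (-3.17), Fshb (-2.76) and Ghrhr (-1.56). Fat, pancreas and liver genes gave Car3 (-4.32), Fabp4 (-3.89), Retn (-2.79), Ucp1 (-2.67), Cox8b (-1.99), Elovl3 (-0.65), Ctrb1 (-3.26), Cpa1 (-2.74), Cpb1 (-2.43), Cyp2e1 (-3.97), Adh1 (-3.54), Alb (-0.96) and Hp (-0.90). Epithelial, immune, meningeal and choroid plexus genes gave Epcam (-2.06), Cyp2f2 (-1.63), Rab25 (-1.04), H2-Aa (-1.90), Cd74 (-1.87), H2-Ab1 (-1.63), Dcn (-0.78), Ogn (-0.50), Steap1 (-0.72), Aqp1 (-0.65) and Ttr (-0.66). The other negative values were Oacyl (-1.22), Tmem184a (-1.21), Tbx3 (-1.07), Chrnb4 (-0.86), Sod3 (-0.86), Pdk4 (-0.84), Nr4a1 (-0.79), Gpr151 (-0.74), Hoxc6 (-0.72), Npy (-0.67) and Lrrc55 (-0.52). The positive values were Slc6a5 (1.55), Zfp931 (1.0), Bpifa1 (0.94), Cbln3 (0.94), Zfp935 (0.77), Crym (0.76), Csmd3 (0.74), Unc13c (0.65), Gabra6 (0.64), Scoc (0.61), Lamp5 (0.59), Gm10767 (0.58), Pcm1 (0.58), Tph2 (0.58) and Tac1 (0.49). Probe sets without a single gene symbol entered no comparison above, and the interaction passed the same thresholds in 19 of 1168 probe sets with several symbols (7 higher, 12 lower) and in 45 of 8542 with none (16 higher, 29 lower).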

How the results depend on the processing

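Of 184 alternative values of the counts, 160 lay within 1.5 times the reported one. With an adjusted p under 0.05 and no fold threshold the interaction was called in 690 genes (212 higher, 478 lower), ASP+CGP vs CGP in 168 and ASP vs CON in 702. With a fold over 2 these counts were 86 (2 higher, 84 lower), 8 and 72, and with limma's treat at a fold of 1.4 they were 97 (1 higher, 96 lower), 9 and 105. Positive interaction calls numbered 41 over every single-symbol probe set without a filter and 14 without moderation of the spread. Leaving out each array in turn gave 248 to 289 interaction calls (20 to 51 higher, 225 to 241 lower), 23 to 31 calls in ASP+CGP vs CGP and 179 to 191 in ASP vs CON, with the 51 from leaving out the second CON array and 42 from leaving out the first ASP+CGP array. A pool stood apart in 184 to 194 genes then, the ASP pool above in 160 to 173. With a distance over 2-fold a pool stood apart in 70 genes (ASP above in 64), and with no minimum distance in 2146 (599). Over the alternatives the adrenal cortex list had 11 to 12 genes called lower, the pancreas list 11 to 17, the white adipose list 9 to 15 and the pituitary hormone list 7 to 9. For the named genes 1820 of 1893 alternative values kept direction and call and 0 reversed, and Hoxc6, Ogn, Gm10767, Scoc and Tac1 lost their call most often. The replicate block called 259 genes, 256 of them among the 257, and Hoxc6 lost its call (adjusted p = 0.053). The labels do not say that array numbers pair samples, and 6 of 18 same-number pairs of arrays correlated above 0.1 in their deviations (range -0.11 to 0.54), so the numbers were not taken to pair the arrays across the 4 pools. The 3 pairs between ASP+CGP and CON arrays were all above 0.1 (0.16, 0.25 and 0.54). A replicate block for ASP+CGP and CON alone, chosen after seeing the data, called 247 genes (13 higher, 234 lower, beside 25 higher in the fit without it), 211 of them among the 257, and of the named genes 14 lost their call (Aqp1, Cbln3, Csmd3, Gabra6, Gm10767, Gpr151, Hoxc6, Lrrc55, Ogn, Pcm1, Scoc, Tac1, Tph2 and Zfp935). The cause of these shifts was not tested beyond what each alternative changes.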
